A study of Homo sapiens with 6 samples.

Results

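The genes described here encode the eukaryotic translation initiation factors and the proteins that bind or modify them, taken as every gene whose symbol in the files starts with EIF1, EIF2, EIF3, EIF4, EIF5 or EIF6. That rule returned 60 of 26931 gene symbols. Of these, 53 were among the 13043 genes that reached an FPKM (fragments per kilobase of transcript, scaled to library size) of at least 1 in at least 2 libraries and were tested. RNA sequencing was done on TC32, an established cell line from Ewing sarcoma, a tumour of bone and soft tissue that is usually driven by a fusion of EWSR1, an RNA-binding protein gene, to FLI1, an ETS transcription factor gene. The cells had received an siRNA against EWSR1 (siEWSR1), an siRNA against FLI1 (siFLI1) or the control siRNA siNeg, and total RNA was collected 48 h later, with 2 libraries in each of the 3 groups. All 6 libraries thus came from transfected cells of the same line, grown in RPMI medium with fetal bovine serum. The sources used here give no siRNA sequence or dose, and nothing in the labels says that the 2 libraries of a group were separate cultures, so p-values measure the spread between these libraries, which may be technical.

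Cap-dependent initiation begins when eIF4E binds the 5′ cap of an mRNA and joins the scaffold eIF4G and the RNA helicase eIF4A. The 4E-binding proteins (4E-BPs), when not phosphorylated by the kinase complex mTORC1, occupy the face of eIF4E that eIF4G uses and so hold back cap-dependent translation. The small ribosomal subunit arrives with eIF1, eIF1A, eIF3, eIF5 and a ternary complex of eIF2, GTP and initiator tRNA. After the start codon has been found, eIF2B recharges eIF2 with GTP, a step that is blocked when stress kinases phosphorylate the alpha subunit of eIF2. Messenger RNA levels, which are all that was measured here, say nothing of phosphorylation or protein amount.

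Implied depth was similar across libraries: read as counting error alone, the deposited intervals would imply 15159073 to 16298374 fragments per library. Whether the intervals hold other error was not tested, so these numbers are a rough guide and not read counts. In each library 12079 to 12741 genes stood at 1 FPKM or more. EWSR1 itself stood at 34.6 and 32.3 FPKM with siEWSR1, at 51.2 and 50.2 FPKM with siFLI1 and at 46.5 and 47.2 FPKM with siNeg. FLI1 stood at 10.4 and 10.6 FPKM with siEWSR1, at 8.98 and 8.56 FPKM with siFLI1 and at 10.9 in both siNeg libraries. Each targeted gene was thus lowest in the libraries labelled with its own siRNA, and gene-level FPKM adds fusion and normal transcripts together. All 7 Ewing sarcoma markers examined were tested, EWSR1 and FLI1 included, among them CD99, the surface antigen used in diagnosis, at 246 to 308 FPKM. Of the 7, 5 fell with siEWSR1 and 4 with siFLI1, and each count includes the target of that siRNA, whose fall was intended. Over all tested genes 31.0% were called lower with siEWSR1 and 29.6% with siFLI1. NR0B1, a target of the fusion, stood at 78.0 and 47.0 FPKM with siEWSR1, at 69.0 and 56.4 FPKM with siFLI1 and at 204 and 234 FPKM with siNeg. None of 5 blood cell markers and none of 4 endothelial markers was tested, and CD3E and HBB were listed at 0 in all 6 libraries. Of 5 epithelial markers, 2 were tested, and both rose with both siRNAs. The keratin gene KRT18 rose by 0.25 and 0.38 and the claudin gene CLDN4 by 1.37 and 1.72 on the log2 scale with siEWSR1 and siFLI1, CLDN4 at 0.219 to 1.97 FPKM over all libraries. The part of these marker changes in the results on initiation factors was not tested.

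Of the symbols that the rule takes, 7 did not pass the filter. EIF4E1B, a germ-cell relative of eIF4E, and the antisense gene EIF2B5-AS1 were listed at 0 in all libraries. EIF5A2, the second eIF5A isoform gene, stood at 0.592 to 0.980 FPKM, the pseudogene EIF3IP1 at 0.316 to 0.491 FPKM, EIF1B-AS1 at 0.0146 to 0.109 FPKM and EIF1AX-AS1 at 0 to 0.444 FPKM. EIF1AY did not pass either. The 53 tested genes were abundant, with a median of 37.4 FPKM in siNeg libraries against 8.45 FPKM for all tested genes.

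Promoter sequence is shown for members that changed by about 1.5-fold or more with both siRNAs and have an entry: EIF1 and EIF1B, whose products guard start-codon choice, EIF2A, an alternative initiator-tRNA carrier, and EIF5, the GTPase-activating protein of eIF2. Each run holds the 250 bases before the transcription start from RefSeq (GRCh38.p14, plus strand), and capitals mark matches to the searched motifs described after them. The windows are chr17:41688635-41688884 for EIF1, chr3:40309457-40309706 for EIF1B, chr3:150546537-150546786 for EIF2A and chr14:103333987-103334236 for the first of the listed EIF5 starts. The bases just after the RefSeq start of EIF2A were not found as an unbroken run in a GENCODE 29 transcript of that gene, unlike those of the other 3. EIF2S2 and EIF4EBP1 are named only.
EIF1: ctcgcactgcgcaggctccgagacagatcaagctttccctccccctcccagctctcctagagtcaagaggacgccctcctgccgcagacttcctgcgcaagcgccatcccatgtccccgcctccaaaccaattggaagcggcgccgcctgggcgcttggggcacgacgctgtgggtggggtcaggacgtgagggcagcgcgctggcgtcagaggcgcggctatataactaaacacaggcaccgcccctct
EIF1B: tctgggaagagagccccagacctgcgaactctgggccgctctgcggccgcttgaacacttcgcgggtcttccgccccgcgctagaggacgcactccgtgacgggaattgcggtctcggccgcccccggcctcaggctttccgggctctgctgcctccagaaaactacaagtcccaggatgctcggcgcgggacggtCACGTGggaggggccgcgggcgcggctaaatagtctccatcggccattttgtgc
EIF2A: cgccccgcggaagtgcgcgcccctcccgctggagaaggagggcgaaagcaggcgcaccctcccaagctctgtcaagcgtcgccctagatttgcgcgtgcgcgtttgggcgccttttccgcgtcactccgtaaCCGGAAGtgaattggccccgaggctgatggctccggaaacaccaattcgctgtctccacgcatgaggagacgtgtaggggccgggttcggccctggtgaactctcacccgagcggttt
EIF5: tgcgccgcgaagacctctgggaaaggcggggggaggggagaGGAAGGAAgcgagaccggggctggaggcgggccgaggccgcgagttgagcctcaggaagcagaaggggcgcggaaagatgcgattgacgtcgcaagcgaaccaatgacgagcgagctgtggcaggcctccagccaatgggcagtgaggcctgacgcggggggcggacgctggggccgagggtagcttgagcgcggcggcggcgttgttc
In these windows 4 motifs were searched on both strands. TGATGNAA is the form of the amino-acid response element read by ATF4. GGAAGGAA is only a short run of the GGAA unit whose repeats are bound by the EWSR1-FLI1 fusion. CCGGAAG is a core bound by ETS factors, and CACGTG is an E-box. The EIF1B window held CACGTG 54 bases before the start, the EIF2A window held CCGGAAG 118 bases before it and the window of the first EIF5 start held GGAAGGAA 209 bases before it, while the EIF1 window held none of the 4. The window of the second listed EIF5 start, chr14:103334638-103334887, which is not printed, also held none of the 4. Among the 43 tested members with a promoter entry, CACGTG was found in 11, or 25.58%, against 11.41% of 9668 tested genes and 6.34% of all 35116 promoters of that length. A member or tested gene was counted if the window of any of its listed starts matched. The share of all promoters counts single windows, also of genes not tested, so it is an unlike measure. CCGGAAG was found in 8 members, or 18.6%, against 19.23% of tested genes and 8.52% of all promoters. GGAAGGAA was found in 2 members, EIF2D and EIF5, or 4.65%, against 4.06% and 3.06%. TGATGNAA was found in 1 member, EIF4E3, or 2.33%, against 2.25% and 3.14%. GGAAGGAA and CCGGAAG share the letters GGAAG, and a match is a description of sequence, not of binding.

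Most initiation factor genes that changed with siEWSR1 were lower than with siNeg, and the changes were small. In siEWSR1 libraries 31 of the 53 tested members, 58.5%, passed the test (limma, adjusted p under 0.05 over all tested genes), against a background of 64.2% of all tested genes. Of the 31 members 26 fell and 5 rose, where all genes divided into 31.0% lower and 33.2% higher. The members' median log2 change was -0.15, against 0.01 for all tested genes, and their median absolute log2 change was 0.20, against 0.35. At least 1.5-fold changes were called for 6 members lower and 2 higher, 8 of 53, where 28.8% of all tested genes were called beyond that fold, 12.8% lower and 16.0% higher. With quantile normalization in place of the deposited scaling, the division of called members was 18 lower and 12 higher. Without siNeg replicate 1 the fallen members numbered 17, and without siNeg replicate 2 the risen members numbered 3.

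The siFLI1 libraries, which were compared with the same siNeg libraries, also had most called members lower. Of the 53 tested members 34, 64.2%, passed the test, against a background of 65.3% of all tested genes, and 25 of them fell while 9 rose. All genes divided into 29.6% lower and 35.7% higher. The median log2 change was -0.17 for members and 0.04 for all tested genes, and the median absolute change was 0.22 for members and 0.35 for all. Changes of at least 1.5-fold were called for 5 members lower and 1 higher, where 30.1% of all tested genes were called beyond that fold, 12.2% lower and 17.8% higher. Without siNeg replicate 1, 21 members were called, 16 lower and 5 higher, and without siNeg replicate 2 or siFLI1 replicate 2 the risen members numbered 4. Summed over all 60 members, the level was 3923 and 3850.2 FPKM with siEWSR1, 3882 and 4018 FPKM with siFLI1 and 4752 and 4627 FPKM with siNeg, so both siNeg libraries lay above the other 4. The total FPKM of a library was 662259 and 566671 with siEWSR1, 502084 and 551764 with siFLI1 and 595820 and 678574 with siNeg, and the part of these totals in the members' levels was not tested.

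**Figure D1:**
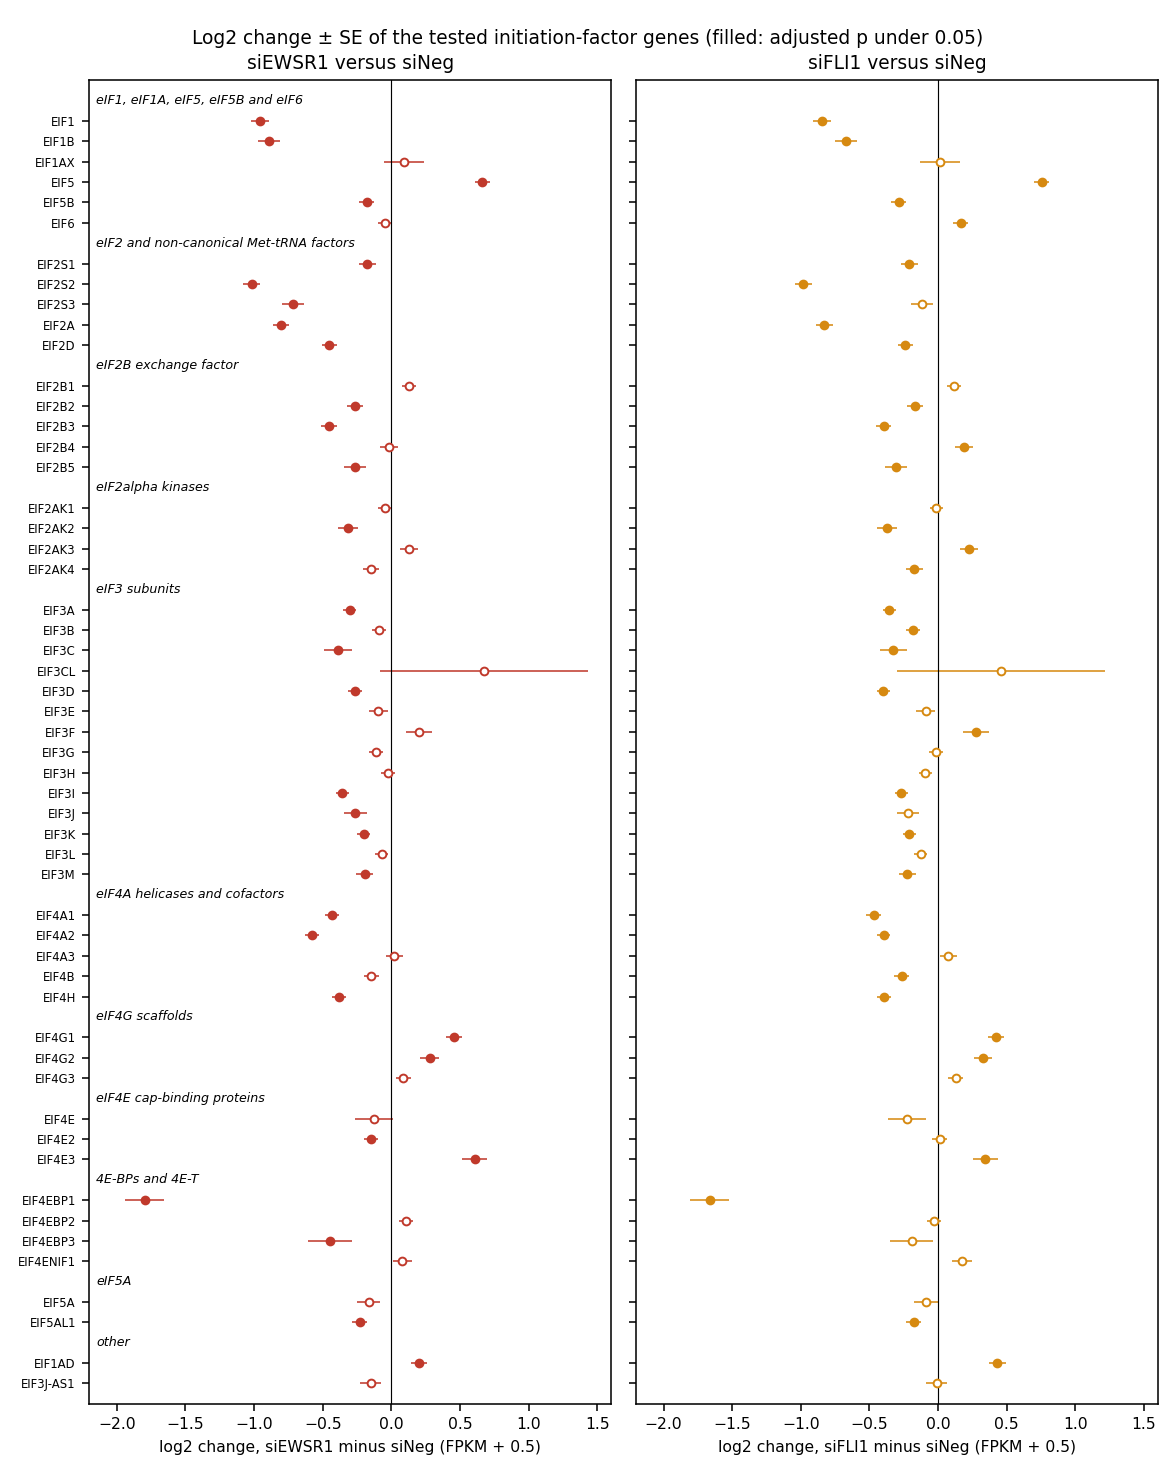
Log2 change of each tested initiation factor gene on the FPKM + 0.5 scale, siEWSR1 minus siNeg on the left and siFLI1 minus siNeg on the right, grouped by role. Points are estimates, bars are standard errors and filled points passed the test; EIF4EBP1 lies farthest left at -1.80 and -1.66, and EIF5 stands to the right of 0 in both panels.

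EIF4EBP1, which encodes 4E-BP1, had the highest mRNA level of the EIF4EBP genes in every library. It fell more than any other tested member in both comparisons. The gene (hg19, chromosome 8, 37888020 to 37917883) stood at 46.5 and 33.6 FPKM with siEWSR1, at 44.1 and 42.8 FPKM with siFLI1 and at 144 and 133 FPKM with siNeg. Every library of either targeting siRNA lay below both siNeg libraries, without overlap. The log2 change was -1.80 ± 0.14 with siEWSR1 (standard error, adjusted p = 9.9e-05), or 3.47-fold lower, and -1.66 ± 0.14 with siFLI1 (adjusted p = 0.00012), or 3.16-fold lower. It was called in all 16 alternative settings in both comparisons. The deposited intervals put the half-width of a single EIF4EBP1 value at 3.3% to 7.05% of the value, which does not cover the spread between libraries.

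The other 4E-BP genes changed less. EIF4EBP2 (chromosome 10, 72163861 to 72188374) stood at 31.6 and 30.9 FPKM with siEWSR1, at 27.6 and 29.2 FPKM with siFLI1 and at 29.3 and 28.7 FPKM with siNeg. Its log2 change was 0.11 with siEWSR1 (95% interval -0.02 to 0.24, adjusted p = 0.13) and -0.03 with siFLI1 (interval -0.16 to 0.10, adjusted p = 0.65), and it was called higher with siEWSR1 only under quantile normalization, at 0.22 (adjusted p = 0.0087). EIF4EBP3 (chromosome 5, 139927251 to 139929163) was near the detection limit, at 1.13 and 1.01 FPKM with siEWSR1, 1.09 and 1.69 FPKM with siFLI1 and 1.62 and 1.65 FPKM with siNeg. Half-widths of its values were 44.5% to 62.9%. It was called lower with siEWSR1, at -0.45 ± 0.16 (adjusted p = 0.045), a call lost on leaving out any siEWSR1 or siNeg library (adjusted p 0.063 to 0.14), and was at -0.19 with siFLI1 (adjusted p = 0.32). The siFLI1 value was -0.58 under quantile normalization (adjusted p = 0.036), -0.42 without siFLI1 replicate 2 (adjusted p = 0.036) and 0.04 without siFLI1 replicate 1 (adjusted p = 0.816). The locus overlaps the readthrough gene ANKHD1-EIF4EBP3, which stood at 6.94 and 6.53 FPKM with siEWSR1, 8.58 and 8.14 FPKM with siFLI1 and 4.07 and 4.22 FPKM with siNeg, and reads of both cannot be told apart where they overlap. As a share of the summed FPKM of the 3 EIF4EBP genes, EIF4EBP1 made up 58.7% and 51.2% with siEWSR1, 60.6% and 58.1% with siFLI1 and 82.3% and 81.4% with siNeg. EIF4ENIF1, which encodes 4E-T, an eIF4E-binding protein of the P-body, stood at 8.90 and 8.85 FPKM with siEWSR1, 9.23 and 9.81 FPKM with siFLI1 and 8.80 and 7.97 FPKM with siNeg and passed the test in neither comparison.

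Among cap-binding proteins, EIF4E, the canonical one, was not called in either comparison. It (chromosome 4, 99799607 to 99851786) stood at 2.70 and 3.62 FPKM with siEWSR1, at 2.61 and 3.19 FPKM with siFLI1 and at 3.47 and 3.46 FPKM with siNeg. The siEWSR1 libraries lay on both sides of the siNeg values. The log2 change was -0.13 with siEWSR1 (95% interval -0.47 to 0.21, adjusted p = 0.46) and -0.23 with siFLI1 (interval -0.57 to 0.11, adjusted p = 0.20), and quantile normalization called it lower with siFLI1, at -0.43 (adjusted p = 0.048). Its values carry half-widths of 10.4% to 12.4%. The FPKM ratio of EIF4EBP1 to EIF4E was 17.2 and 9.27 with siEWSR1, 16.9 and 13.4 with siFLI1 and 41.6 and 38.3 with siNeg, again without overlap. FPKM is scaled to length, but the size of such a ratio also depends on how reads of further copies were counted. GENCODE 29 lists 5 pseudogenes named for EIF4E and 1 for EIF4EBP1, and their part in the ratio was not tested. EIF4E2, which encodes the cap-binding protein 4EHP, was the highest of the family, at 39.0 and 40.4 FPKM with siEWSR1, 45.0 and 43.9 FPKM with siFLI1 and 45.1 and 43.1 FPKM with siNeg. Its call as lower with siEWSR1 (log2 change -0.15 ± 0.05, adjusted p = 0.044) was lost on leaving out any library (adjusted p 0.053 to 0.22). EIF4E3, a further cap-binding relative, rose with both siRNAs: it stood at 3.12 and 3.50 FPKM with siEWSR1, 2.52 and 2.82 FPKM with siFLI1 and 2.05 and 1.94 FPKM with siNeg. The log2 change was 0.61 ± 0.09 with siEWSR1 (adjusted p = 0.0014) and 0.34 ± 0.09 with siFLI1 (adjusted p = 0.016), and the second call was lost without siNeg replicate 2 (adjusted p = 0.079), without siFLI1 replicate 2 (0.089) and under quantile normalization (0.50).

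**Figure D2:**
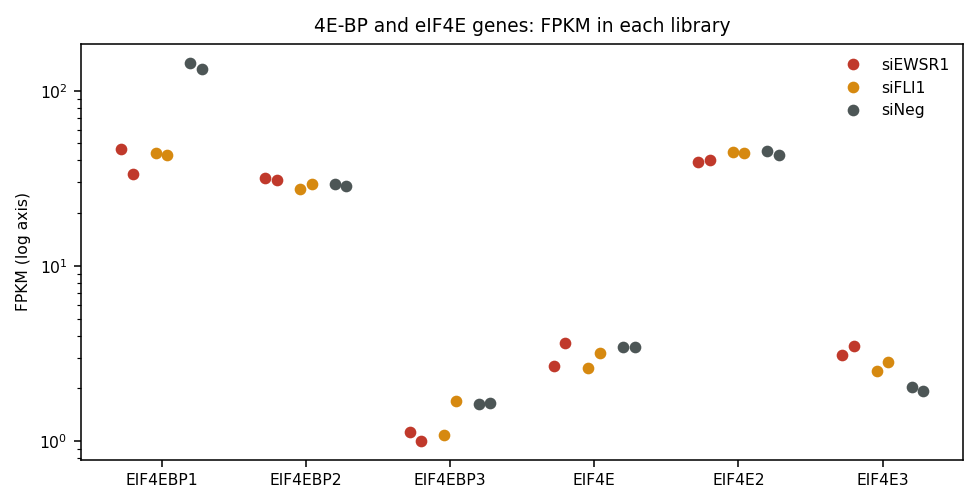
FPKM on a log axis of the 3 EIF4EBP genes and the 3 tested eIF4E genes in each library, with siEWSR1 on the left, siFLI1 in the middle and siNeg on the right of each gene. Each point is a library; the siNeg points of EIF4EBP1, at 144 and 133 FPKM, stand above all others, while those of EIF4EBP2 and EIF4E lie close to the remaining groups.

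Most genes of eIF2 and of the proteins that deliver initiator tRNA beside it fell. With siEWSR1 all 5 tested genes fell, with a median log2 change of -0.72, and with siFLI1 4 of 5 fell, with a median of -0.24 (2 of 5 without siNeg replicate 1), where 64.2% and 65.3% of all tested genes were called. EIF2S2, the beta subunit of eIF2 (chromosome 20, 32676104 to 32700162), stood at 18.5 and 17.2 FPKM with siEWSR1, at 18.8 and 17.9 FPKM with siFLI1 and at 37.3 and 36.2 FPKM with siNeg. Its log2 change was -1.02 ± 0.06 with siEWSR1 (adjusted p = 3.3e-05) and -0.98 ± 0.06 with siFLI1 (adjusted p = 3.1e-05), and all libraries of the targeting siRNAs lay below both siNeg libraries. EIF2A (chromosome 3, 150264465 to 150303803), a separate protein that can bring initiator tRNA to some mRNAs, stood at 14.8 and 14.1 FPKM with siEWSR1, 13.9 and 14.4 FPKM with siFLI1 and 26.4 and 24.7 FPKM with siNeg. Its log2 changes were -0.80 ± 0.06 (adjusted p = 8.4e-05) and -0.83 ± 0.06 (adjusted p = 6.5e-05) for siEWSR1 and siFLI1. EIF2D, which encodes another initiator-tRNA carrier that also acts in ribosome recycling, fell by 0.45 on the log2 scale with siEWSR1 and by 0.24 with siFLI1.

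The alpha and gamma subunits moved otherwise. EIF2S1, the subunit that stress kinases phosphorylate (chromosome 14, 67827034 to 67853233), stood at 18.3 and 18.7 FPKM with siEWSR1, at 17.3 and 18.8 FPKM with siFLI1 and at 21.5 and 20.3 FPKM with siNeg. It was called lower in both comparisons by a small margin, at -0.18 with siEWSR1 (adjusted p = 0.047) and -0.21 with siFLI1 (adjusted p = 0.025). The siEWSR1 call was lost on leaving out any library, and the siFLI1 call without siNeg replicate 1 or siFLI1 replicate 1 (adjusted p 0.141 and 0.135). EIF2S3, the X-linked gene of the GTP-binding gamma subunit (24073065 to 24096927), stood at 41.7 and 46.2 FPKM with siEWSR1, at 62.3 and 71.2 FPKM with siFLI1 and at 72.6 and 72.2 FPKM with siNeg. The siEWSR1 libraries were the low ones, below every library of the other groups. The log2 change was -0.72 ± 0.08 with siEWSR1 (adjusted p = 0.00042) and -0.12 ± 0.08 with siFLI1 (95% interval -0.31 to 0.08, adjusted p = 0.24). The ratio of beta-subunit to gamma-subunit FPKM was 0.444 and 0.374 with siEWSR1, 0.301 and 0.252 with siFLI1 and 0.513 and 0.501 with siNeg, and that of alpha to gamma was 0.439 and 0.404, 0.278 and 0.263, and 0.297 and 0.282 in the same groups. The 3 subunits stand in equal number in the eIF2 complex.

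The factors that scan for and commit to the start codon included both falling and rising genes. Of 6 tested genes of eIF1, eIF1A, eIF5, eIF5B and eIF6, 3 fell and 1 rose with siEWSR1, and 3 fell and 2 rose with siFLI1, 66.7% and 83.3% called against 64.2% and 65.3% of all tested genes. EIF1, the most abundant member in siNeg libraries and the factor that blocks initiation away from a proper start codon (chromosome 17, 39845127 to 39847898), stood at 257 and 236 FPKM with siEWSR1, at 266 and 267 FPKM with siFLI1 and at 499 and 459.8 FPKM with siNeg. Its log2 change was -0.96 ± 0.07 with siEWSR1 (adjusted p = 6.0e-05) and -0.85 ± 0.07 with siFLI1 (adjusted p = 8.2e-05). Its paralog EIF1B (chromosome 3, 40351173 to 40353915) stood at 22.8 and 22.7 FPKM with siEWSR1, 25.4 and 27.8 FPKM with siFLI1 and 45.6 and 39.7 FPKM with siNeg, with log2 changes of -0.89 ± 0.08 (adjusted p = 0.00017) and -0.67 ± 0.08 (adjusted p = 0.00051) for siEWSR1 and siFLI1. In both genes all libraries of the targeting siRNAs lay below the siNeg libraries.

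EIF5, whose product opposes eIF1 at the start codon and triggers GTP hydrolysis by eIF2, moved the other way. It (chromosome 14, 103800339 to 103811361) stood at 27.7 and 26.7 FPKM with siEWSR1, at 28.2 and 29.8 FPKM with siFLI1 and at 16.9 and 17.0 FPKM with siNeg, with no overlap. The log2 change was 0.66 ± 0.05 with siEWSR1 (adjusted p = 0.000115) and 0.75 ± 0.05 with siFLI1 (adjusted p = 6.1e-05). EIF5B, the GTPase that joins the ribosomal subunits, fell by 0.18 on the log2 scale with siEWSR1 and by 0.29 with siFLI1. The siEWSR1 call of EIF5B held in 12 of 16 alternatives, with values from -0.21 to -0.03, and its siFLI1 call in all 16. EIF6, which keeps free large subunits from joining, was called higher with siFLI1 at 0.16 (adjusted p = 0.031), a call lost on leaving out any siNeg or siFLI1 library (adjusted p 0.051 to 0.167), and stood at -0.05 with siEWSR1 (adjusted p = 0.44), a value that became 0.13 and was called under quantile normalization (adjusted p = 0.049). EIF1AX, the scanning factor eIF1A, stood at 8.16 and 10.2 FPKM with siEWSR1, 7.53 and 9.79 FPKM with siFLI1 and 9.01 and 8.03 FPKM with siNeg, with overlapping groups and no call.

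**Figure D3:**
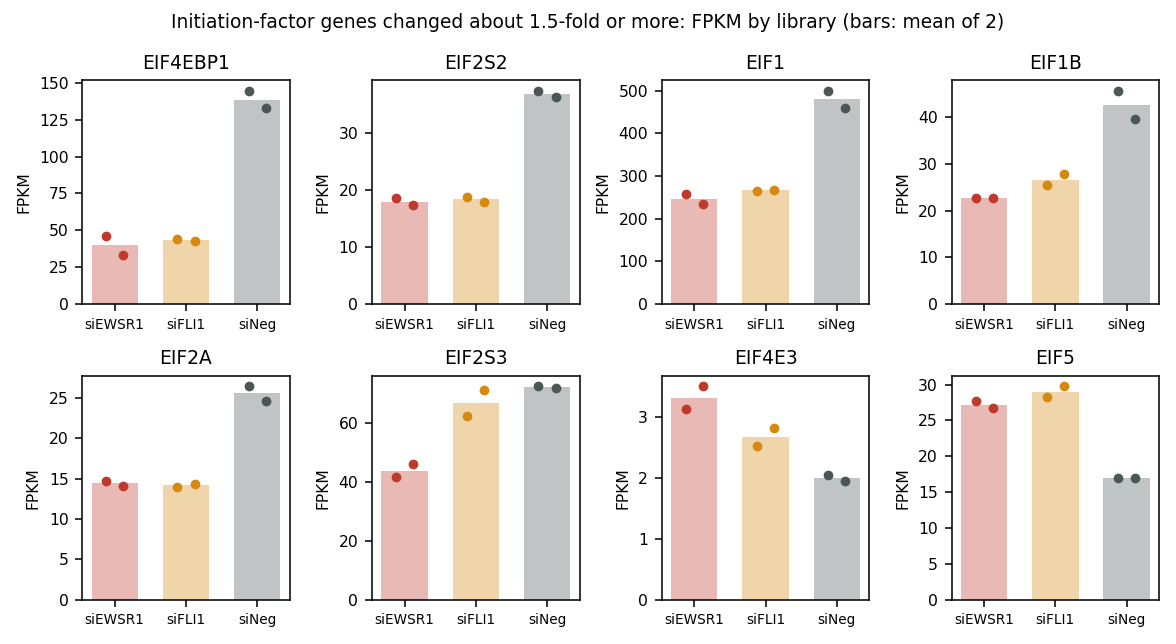
FPKM by library of the 8 initiation factor genes that were called and changed by about 1.5-fold or more with at least 1 siRNA, each panel with its own axis from 0. Bars are means of 2 libraries and points are libraries, in the order siEWSR1, siFLI1, siNeg; in EIF2S3 the siFLI1 points, at 62.3 and 71.2 FPKM, stand near siNeg, and EIF5 and EIF4E3 are the panels in which siNeg is lowest.

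For eIF2B, the exchange factor for eIF2, 3 of 5 subunit genes fell and none rose with siEWSR1, while 3 fell and 1 rose with siFLI1, 60% and 80% called against 64.2% and 65.3% of all tested genes. Without siNeg replicate 1 or siFLI1 replicate 1, 1 fell with siFLI1. EIF2B3, the gamma subunit that pairs with the catalytic epsilon subunit, changed most, at -0.45 ± 0.06 with siEWSR1 (adjusted p = 0.00072) and -0.40 ± 0.06 with siFLI1 (adjusted p = 0.0012), and stood at 14.8 and 14.7 FPKM, 15.6 and 15.2 FPKM, and 21.1 and 19.7 FPKM in siEWSR1, siFLI1 and siNeg libraries. EIF2B5, the epsilon subunit, fell by 0.27 with siEWSR1 and by 0.31 with siFLI1 on the log2 scale, calls that held in 13 and 14 of 16 alternatives. EIF2B2 fell by 0.27 and 0.17 in the same order (adjusted p = 0.0064 and 0.038), and the siFLI1 call was lost on leaving out any siNeg or siFLI1 library (adjusted p 0.055 to 0.183). EIF2B1, the alpha subunit and the most abundant of the 5, stood at 27.3 and 27.0 FPKM with siEWSR1, at 26.6 and 27.2 FPKM with siFLI1 and at 24.4 and 25.1 FPKM with siNeg and was not called (adjusted p = 0.061 and 0.079). EIF2B4 was called higher with siFLI1, at 0.19 (adjusted p = 0.040), a call lost without either siNeg library or without siFLI1 replicate 2.

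Of the 4 kinases that phosphorylate eIF2 alpha, 1 was called with siEWSR1 and 3 with siFLI1. That is 25% and 75% called, against 64.2% and 65.3% of all tested genes. EIF2AK2, which encodes the double-stranded RNA sensor PKR, was lower with both siRNAs, at -0.32 ± 0.07 with siEWSR1 (adjusted p = 0.0085) and -0.37 ± 0.07 with siFLI1 (adjusted p = 0.0044). It stood at 7.55 and 7.95 FPKM with siEWSR1, at 7.42 and 7.48 FPKM with siFLI1 and at 10.4 and 9.25 FPKM with siNeg. The EIF2AK2 call held in 15 of 16 alternatives with siEWSR1 and in all 16 with siFLI1. EIF2AK1, the haem-regulated kinase HRI and the most abundant of the 4, stood at 33.7 and 33.0 FPKM with siEWSR1, 33.5 and 34.7 FPKM with siFLI1 and 34.3 and 34.4 FPKM with siNeg, with 95% intervals of the log2 change of -0.16 to 0.08 and -0.13 to 0.11. EIF2AK3, the endoplasmic reticulum kinase PERK, and EIF2AK4, the amino-acid sensor GCN2, were called only with siFLI1, at 0.22 (adjusted p = 0.022) and -0.17 (adjusted p = 0.042). Neither differed by the test between siEWSR1 and siFLI1 (adjusted p = 0.43 and 0.83), and both siFLI1 calls were lost on leaving out either siNeg library.

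The eIF3 complex, the large scaffold that carries the small subunit to the mRNA, had 14 tested genes. With siEWSR1 7 fell and none rose, with a median log2 change of -0.15, and with siFLI1 7 fell and 1 rose, with a median of -0.19. That is 50% and 57.1% called, below the 64.2% and 65.3% of all tested genes. The fallen genes numbered 4 with siEWSR1 without siNeg replicate 1 or siNeg replicate 2, and 4 with siFLI1 without siNeg replicate 1 or siFLI1 replicate 1. The 1 higher call with siFLI1 was lost on leaving out any siNeg or siFLI1 library. This direction depended on scaling: under quantile normalization 1 fell and 3 rose with siEWSR1, and 4 fell and 1 rose with siFLI1. No eIF3 gene was called with a 1.5-fold change or more. EIF3I changed by -0.36 ± 0.05 with siEWSR1 (adjusted p = 0.00076) and by -0.27 ± 0.05 with siFLI1 (adjusted p = 0.0026), and stood at 150.5 and 146 FPKM, 157 and 158 FPKM, and 189.8 and 189.7 FPKM in siEWSR1, siFLI1 and siNeg libraries. EIF3A, the largest subunit, fell by 0.30 with siEWSR1 and by 0.35 with siFLI1 on the log2 scale. EIF3D, which can itself bind the cap of some mRNAs, fell by 0.26 and 0.40 in the same order. EIF3H, the most abundant of the complex, stood at 377 and 385 FPKM with siEWSR1, at 358 and 369 FPKM with siFLI1 and at 395 and 380.5 FPKM with siNeg and was not called. EIF3F was the gene that rose with siFLI1, at 0.28 (adjusted p = 0.040), a call lost on leaving out either siNeg or either siFLI1 library.

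EIF3C and EIF3CL are near-identical neighbours on chromosome 16 whose rows overlap, so their reads could be divided either way. EIF3CL stood at 7.41 and 34.4 FPKM with siEWSR1, at 8.63 and 21.9 FPKM with siFLI1 and at 14.3 and 6.82 FPKM with siNeg, so the highest and a low value stood in the same group, and the standard error was 0.76 on the log2 scale. EIF3C stood at 166 and 133 FPKM, 159.7 and 151 FPKM, and 193 and 197 FPKM in siEWSR1, siFLI1 and siNeg libraries. The sum of the pair, an alternative chosen after seeing the data, was 173 and 168 FPKM with siEWSR1, 168 and 173 FPKM with siFLI1 and 207 and 204 FPKM with siNeg. On that sum the log2 change was -0.27 ± 0.05 in both comparisons (adjusted p = 0.0031), against -0.39 ± 0.10 and -0.32 ± 0.10 for EIF3C alone with siEWSR1 and siFLI1 (adjusted p = 0.0145 and 0.028). The siEWSR1 call for EIF3C alone was lost without siNeg replicate 1 (adjusted p = 0.053) or siNeg replicate 2 (0.0645) and under quantile normalization (0.063). The siFLI1 call was lost on leaving out any siNeg or siFLI1 library (0.070 to 0.131), under quantile normalization (0.051) and without the filter on low values (0.077).

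Within eIF4F and its helpers, the called helicase and cofactor genes were lower and the called scaffold genes higher. Of the 5 tested genes of eIF4A and its cofactors, 3 fell with siEWSR1 and 4 fell with siFLI1, and none rose, with median log2 changes of -0.38 and -0.39. That is 60% and 80% called, against 64.2% and 65.3% of all tested genes. EIF4A1, the main eIF4A helicase, stood at 254 and 241 FPKM with siEWSR1, at 239 and 243 FPKM with siFLI1 and at 337 and 329.7 FPKM with siNeg. Its log2 change was -0.43 ± 0.05 with siEWSR1 (adjusted p = 0.00055) and -0.47 ± 0.05 with siFLI1 (adjusted p = 0.00034). EIF4A2, the second helicase isoform, stood at 104 and 106 FPKM with siEWSR1, 118 and 119.7 FPKM with siFLI1 and 159.9 and 154 FPKM with siNeg, with log2 changes of -0.58 ± 0.05 (adjusted p = 0.00012) and -0.39 ± 0.05 (adjusted p = 0.00052). Its locus overlaps RFC4, a replication factor gene that stood at 23.7 and 19.4 FPKM with siEWSR1, 22.9 and 21.8 FPKM with siFLI1 and 49.97 and 49.3 FPKM with siNeg, and the part of that overlap in the EIF4A2 values was not tested. EIF4H, an RNA-binding cofactor of eIF4A, fell by 0.38 with siEWSR1 and by 0.39 with siFLI1. EIF4B, the other cofactor, was at -0.15 with siEWSR1 (adjusted p = 0.058) and fell by 0.26 with siFLI1. EIF4A3, a core protein of the exon junction complex rather than of initiation, stood at 47.6 and 44.4 FPKM with siEWSR1, 48.3 and 47.2 FPKM with siFLI1 and 43.8 and 46.9 FPKM with siNeg and was called only under quantile normalization, as higher, at 0.19 and 0.17 (adjusted p = 0.026 and 0.036).

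Of the 3 eIF4G genes, 2 rose and none fell with each siRNA, with median log2 changes of 0.28 with siEWSR1 and 0.33 with siFLI1. That is 66.7% called with each, near the 64.2% and 65.3% of all tested genes. Over all tested genes 33.2% were called higher with siEWSR1 and 35.7% with siFLI1. EIF4G1, the scaffold of eIF4F, stood at 77.0 and 72.0 FPKM with siEWSR1, at 71.0 and 74.7 FPKM with siFLI1 and at 53.1 and 55.4 FPKM with siNeg. The log2 change was 0.45 ± 0.06 with siEWSR1 (adjusted p = 0.00075) and 0.42 ± 0.06 with siFLI1 (adjusted p = 0.00098). EIF4G2, also known as DAP5, which lacks the eIF4E-binding region, stood at 242 and 256 FPKM with siEWSR1, at 244 and 271 FPKM with siFLI1 and at 209 and 201.5 FPKM with siNeg, and rose by 0.28 ± 0.07 and 0.33 ± 0.07 on the log2 scale (adjusted p = 0.011 and 0.0057). In both genes the siNeg libraries were lowest. The EIF4G2 call held in 15 of 16 alternatives with siEWSR1 and in all 16 with siFLI1. EIF4G3 stood at 24.8 and 25.1 FPKM with siEWSR1, 25.0 and 26.4 FPKM with siFLI1 and 23.6 and 23.4 FPKM with siNeg and was not called (adjusted p = 0.19 and 0.071).

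EIF5A, the translation factor that carries the modified residue hypusine and eases elongation, stood at 134 and 126 FPKM with siEWSR1, at 134 and 140.3 FPKM with siFLI1 and at 134 and 158 FPKM with siNeg. The first siNeg value lay close to those of most other libraries and the second above them all, and the gene was not called (adjusted p = 0.13 and 0.39). EIF5AL1, an intronless near-copy, fell by 0.23 on the log2 scale with siEWSR1 and by 0.18 with siFLI1. These calls held in 15 and 12 of 16 alternatives. Reads of EIF5AL1 cannot be told from those of EIF5A where the sequences agree. DHPS, the deoxyhypusine synthase that modifies eIF5A, stood at 37.3 and 31.0 FPKM with siEWSR1, 32.3 and 30.7 FPKM with siFLI1 and 64.5 and 65.2 FPKM with siNeg, with log2 changes of -0.92 ± 0.09 (adjusted p = 0.00022) and -1.03 ± 0.09 (adjusted p = 0.00012). DOHH, the hydroxylase of the next step, stood at 6.36 and 3.92 FPKM, 5.57 and 5.66 FPKM, and 4.74 and 4.46 FPKM in siEWSR1, siFLI1 and siNeg libraries and was not called. EIF1AD, named for an eIF1A domain, rose by 0.20 with siEWSR1 and by 0.43 with siFLI1 (log2, adjusted p = 0.026 and 0.0011), and it overlaps BANF1, which fell by 0.35 and 0.30. The EIF1AD call held in 11 of 16 alternatives with siEWSR1 and in all 16 with siFLI1. The antisense gene EIF3J-AS1 was not called.

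Several members have further copies that could take or lend reads. GENCODE 29 lists 72 pseudogenes named for 21 of the members, among them 13 for EIF4A1, 7 for EIF1 and 4 for EIF2S2, and 1 of the 72 stands in the files. The sources used here do not give the strand setting or how reads that align to several places were counted.

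The direct comparison of siEWSR1 with siFLI1 had 1 of 53 members called, or 1.89%, against a background of 3.86% of all tested genes, 3.07% lower and 0.790% higher with siEWSR1. That member was EIF2S3, whose values are given with the eIF2 subunits: it was lower with siEWSR1 by 0.60 ± 0.08 on the log2 scale (95% interval -0.79 to -0.40, adjusted p = 0.023), or 1.51-fold. The difference had the same sign in all 16 alternatives, but the call was lost without siNeg replicate 1 (adjusted p = 0.058), siNeg replicate 2 (0.055), siFLI1 replicate 1 (0.073) or siFLI1 replicate 2 (0.16). Over all genes 103 were higher and 401 lower with siEWSR1, and this division was 209 and 343 under quantile normalization and 159 and 351 with median-ratio size factors. The members' median log2 difference was -0.04, against -0.03 for all tested genes, and the median absolute difference was 0.08 against 0.11. For EIF4EBP1 the difference was -0.13 (interval -0.48 to 0.21, adjusted p = 0.62), and without siEWSR1 replicate 1, the higher of its pair, it was -0.37 and called (adjusted p = 0.043), while without siEWSR1 replicate 2 it was 0.10 (adjusted p = 0.52). EIF1 differed by -0.11 (interval -0.27 to 0.05), EIF2S2 by -0.04 (-0.18 to 0.11) and EIF5 by -0.09 (-0.22 to 0.04), none of them called.

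**Figure D4:**
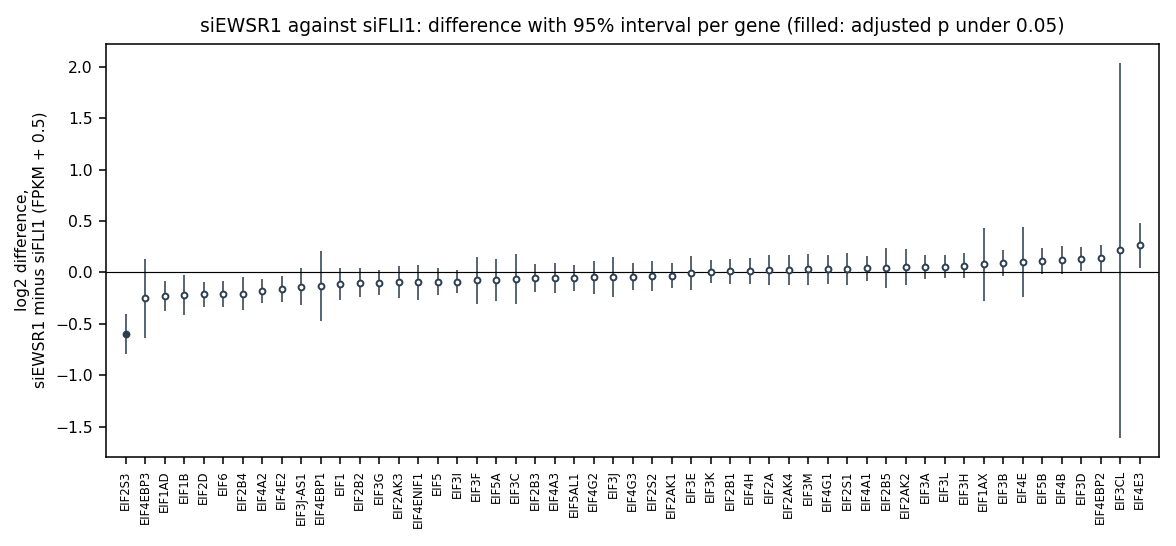
Log2 difference, siEWSR1 minus siFLI1 on the FPKM + 0.5 scale, of each tested initiation factor gene with its 95% interval, ordered by size. The filled point, EIF2S3 at -0.60, is the gene that passed the test, and EIF3CL has by far the widest interval, -1.61 to 2.04.

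Genes that act on these factors were examined as 5 lists. Of 21 tested genes of mTORC1 and its inputs and substrates, 8 rose and 7 fell with siEWSR1, and 8 rose and 6 fell with siFLI1, 71.4% and 66.7% called and near the 64.2% and 65.3% of all tested genes. SESN3, a sestrin, one of a family of stress-induced inhibitors of mTORC1, stood at 71.3 and 91.0 FPKM with siEWSR1, at 66.7 and 81.6 FPKM with siFLI1 and at 10.7 and 11.2 FPKM with siNeg, a log2 change of 2.83 ± 0.14 with siEWSR1 (adjusted p = 1.7e-05) and 2.70 ± 0.14 with siFLI1 (adjusted p = 1.6e-05). SESN1 stood at 4.52 and 4.97 FPKM, 2.92 and 3.36 FPKM, and 1.09 and 1.01 FPKM in siEWSR1, siFLI1 and siNeg libraries, with log2 changes of 1.76 ± 0.10 and 1.23 ± 0.10. It was the gene of these lists that differed between siEWSR1 and siFLI1, by 0.53 ± 0.10 (adjusted p = 0.040), a call lost on leaving out any library except siEWSR1 replicate 1. SESN2, the sestrin that senses leucine and is a target of ATF4, went the other way from its relatives, at 10.0 and 10.1 FPKM with siEWSR1, 9.37 and 10.1 FPKM with siFLI1 and 29.4 and 28.7 FPKM with siNeg. RRAGB, a Rag GTPase that recruits mTORC1 to lysosomes, rose by 1.41 with siEWSR1 and by 1.20 with siFLI1.

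Of 16 tested cap and poly(A) cofactors of eIF4F, 5 rose and 2 fell with siEWSR1, and 5 rose and 4 fell with siFLI1. That is 43.8% and 56.2% called, below the 64.2% and 65.3% of all tested genes, and 1 fell with siEWSR1 without either siNeg library. MKNK2, an eIF4E kinase that docks on eIF4G, stood at 47.4 and 48.8 FPKM with siEWSR1, at 47.5 and 50.8 FPKM with siFLI1 and at 25.2 and 27.6 FPKM with siNeg, with log2 changes of 0.85 ± 0.07 (adjusted p = 8.9e-05) and 0.89 ± 0.07 (adjusted p = 6.7e-05). The related kinase MKNK1 rose by 0.46 and 0.67 and the helicase DDX3X by 0.53 and 0.45, while PAIP2B, an inhibitor of poly(A)-binding protein, fell by 0.41 and 0.57, each given for siEWSR1 and then siFLI1.

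The integrated stress response is the programme downstream of eIF2 alpha phosphorylation. Its list also holds genes that act on that phosphorylation, among them GCN1, PPP1R15B and DNAJC3. The median log2 changes of the list were -1.24 with siEWSR1 and -1.06 with siFLI1. Of its 10 tested genes, 9 fell and 1 rose with each siRNA. That is 100% called with each, against 64.2% and 65.3% of all tested genes. Over all tested genes 31.0% were called lower with siEWSR1 and 29.6% with siFLI1. Earlier results on these libraries already showed the fall of this programme, so the list is not independent evidence of it. ATF4, whose translation increases when eIF2 is limiting, stood at 144 and 133 FPKM with siEWSR1, at 145 and 146 FPKM with siFLI1 and at 288 and 262 FPKM with siNeg. DDIT3, which encodes CHOP, stood at 23.4 and 25.0 FPKM, 27.5 and 27.6 FPKM, and 87.7 and 79.8 FPKM in siEWSR1, siFLI1 and siNeg libraries. The ATF4 targets CHAC1, TRIB3 and ASNS changed by -4.83, -3.55 and -3.36 with siEWSR1 and by -4.46, -3.45 and -3.32 with siFLI1 (log2). DNAJC3, an inhibitor of eIF2 alpha kinases, was the gene that rose, by 0.57 and 0.56.

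Of 5 tested genes of recycling and reinitiation, 3 fell and none rose with either siRNA: HBS1L by 0.64 and 0.77, PELO by 0.41 and 0.32, both ribosome rescue factors, and the recycling ATPase ABCE1 by 0.30 and 0.42, on the log2 scale with siEWSR1 and then siFLI1. That is 60% called with each, against 64.2% and 65.3% of all tested genes, and 2 fell with siEWSR1 on leaving out siNeg replicate 1, siNeg replicate 2 or siEWSR1 replicate 1. With siFLI1, 2 fell on leaving out siNeg replicate 1, siNeg replicate 2 or siFLI1 replicate 1. Of 14 tested elongation and termination genes, 3 fell and 1 rose with each siRNA, 28.6% called against 64.2% and 65.3% of all tested genes. The fallen genes were DHPS, EEF1E1, an accessory protein of the tRNA synthetase complex, at -0.88 and -0.87, and GSPT1, which encodes the release factor eRF3a, at -0.32 and -0.33. EEF1A1, which delivers tRNA to the ribosome, was the gene called higher with siEWSR1 at 0.19 (adjusted p = 0.028), and the eEF2 kinase gene EEF2K the gene called higher with siFLI1 at 0.31 (adjusted p = 0.0072). On leaving out siNeg replicate 1, siEWSR1 replicate 1 or either siFLI1 library, 0 of these genes were called higher with siEWSR1 by limma.

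**Figure D5:**
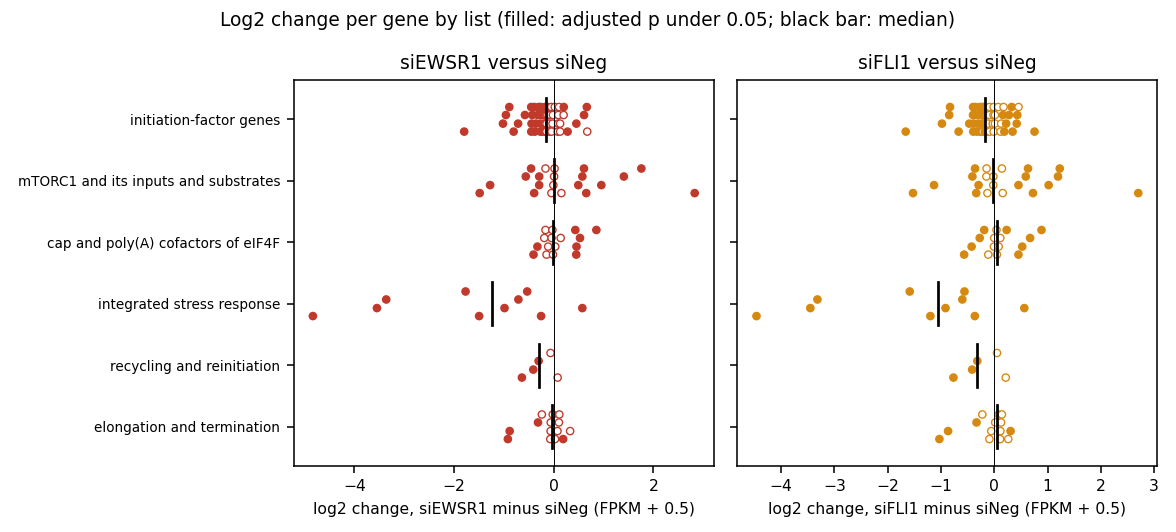
Log2 change on the FPKM + 0.5 scale of each gene in the initiation factor set and in the 5 lists of related genes, siEWSR1 minus siNeg on the left and siFLI1 minus siNeg on the right. Each point is a gene, filled where it passed the test, and the black bar is the list's median; the integrated stress response has the lowest medians, -1.24 and -1.06.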

How the data were processed

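Gene-level FPKM values with a 95% interval per library were deposited by the authors. Per the submitters' processing notes, the tools were TopHat2 2.0.13, Cufflinks and Cuffdiff, and the build was hg19. The sources used here do not give the gene annotation, strand setting or library kit. Each file listed 27442 rows for 26931 symbols, and rows of 1 symbol were summed. No row of the 62 member rows had a failed status. Starts were converted to count from 1. Since FPKM divides by library size, abundant RNAs shift all other genes.

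The members and lists were chosen with earlier results of these data known. Genes at 1 FPKM or more in at least 2 of 6 libraries were tested as log2(FPKM + 0.5) with limma 3.58.1 (R 4.3.3), trended moderated variances and 1 fit over all libraries (3 residual and 3.39 prior degrees of freedom). The comparisons were siEWSR1 and siFLI1 each with siNeg and with each other. P-values are two-sided, adjusted by Benjamini-Hochberg over 13043 genes, with a threshold of 0.05. Errors are standard errors of the fit, and folds understate low genes. The fit was checked on simulated data. Depth was implied from the intervals, read as 2 times FPKM over the square root of fragments, as if they held counting error alone. In all 16 alternatives were tried, plus 1 chosen after seeing the data.

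Named genes were EIF4E and the EIF4EBP genes, members called with an absolute log2 change of at least 0.58 or between siEWSR1 and siFLI1, the most abundant member per role, up to 4 called genes per related list, EWSR1 and FLI1. Other members named by value, and ATF4, DNAJC3, DOHH, RFC4, BANF1, EEF1A1 and ANKHD1-EIF4EBP3, were chosen after their values were seen.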

Additional observations from a re-analysis of the deposited data

Results flagged for a closer look

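EIF2S3, the gene of the gamma subunit of eIF2, differed between the siEWSR1 and siFLI1 effects: its log2 change with siEWSR1 minus that with siFLI1 was -0.60 (limma, adjusted p = 0.023), with 41.7 and 46.2 FPKM in siEWSR1 libraries, 62.3 and 71.2 FPKM in siFLI1 libraries and 72.6 and 72.2 FPKM in siNeg libraries. The call held in 10 of 16 alternatives. It was lost, among others, without the filter on low values (adjusted p = 0.078) and with only siEWSR1 and siFLI1 in the fit (0.0501).

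SESN1, a sestrin gene of the mTORC1 list, differed between the 2 effects in the other direction, by 0.53 (adjusted p = 0.040), with a larger rise with siEWSR1. Both siRNAs raised it over siNeg in all 4 libraries. The call between siEWSR1 and siFLI1 was lost, among others, without the filter on low values (limma, adjusted p = 0.104) and with only siEWSR1 and siFLI1 in the fit (0.072).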

How the results depend on the processing

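Of the members called in the main analysis, 16 of 31 with siEWSR1 and 18 of 34 with siFLI1 were called in every alternative that tested them, and 15 and 16 were lost in at least 1. EIF1, EIF1B, EIF2A, EIF2S2, EIF2B3, EIF3I, EIF4A1, EIF4A2, EIF4EBP1, EIF4G1, EIF4H and EIF5 were called in all 16 alternatives in both comparisons. Leaving out 1 library left 21 to 29 members called with siEWSR1 (3 to 5 higher, 17 to 24 lower), 21 to 36 with siFLI1 (4 to 9 higher, 16 to 27 lower) and 0 to 2 between siEWSR1 and siFLI1. Over all genes that range was 6628 to 7995 with siEWSR1 (3526 to 4104 higher, 3102 to 4056 lower), 6770 to 8826 with siFLI1 (3714 to 4804 higher, 2895 to 4022 lower) and 4 to 728 between siEWSR1 and siFLI1 (3 to 107 higher, 1 to 621 lower). With a mean of at least 5 FPKM required, which tests fewer genes, 2518 genes were higher with siEWSR1 and 2787 with siFLI1. Quantile normalization gave 12 members higher with siEWSR1.

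Between siEWSR1 and siFLI1, where 504 genes were called, the count was 88 without a filter on low values (15 higher, 73 lower), 825 with a robust variance trend (185 higher, 640 lower) and 194 with only these 2 groups in the fit (22 higher, 172 lower). Higher genes numbered 209 under quantile normalization and 159 with size factors. Members called there were 0 without the filter and 0 with only these 2 groups in the fit.

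Under quantile normalization the sign turned for 12 of 53 members with siEWSR1 and 7 with siFLI1. With siEWSR1 5 of the 12 were called under that or the deposited scaling: EIF3H (0.20), EIF3L (0.17), EIF3M (0.030), EIF4E2 (0.0033) and EIF6 (0.13). With siFLI1 0 of the 7 were. The EIF3C difference between siEWSR1 and siFLI1, which was not called, turned to 0.013 under quantile normalization and was -0.22 to 0.094 on leaving out 1 library. The cause was not tested in any of these.

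Replicate numbers were not used as pairs in the main fit. Deviations of same-numbered libraries correlated at -0.14 for siEWSR1 with siNeg, -0.05 for siFLI1 with siNeg and 0.07 for siEWSR1 with siFLI1. With 2 libraries a group these values cannot show whether same-numbered libraries were paired. With the replicate number as a block, 29 members were called with siEWSR1, 30 with siFLI1 and 1 between them, and 319 genes in all were called between siEWSR1 and siFLI1 (57 higher, 262 lower). The SESN1 difference then had an adjusted p of 0.058. With 2 libraries a group, each call rests on the spread pooled over the 3 groups, and levels of a few FPKM such as EIF4EBP3 and EIF4E are limited by depth.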
